A study of Mus musculus with 13 samples.

Results

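Troponin is the calcium switch of striated muscle. It sits on the actin thin filament together with tropomyosin and is built from 3 subunits: troponin T anchors the complex to tropomyosin, troponin I inhibits contraction at rest, and troponin C binds calcium and releases that inhibition. Mammals encode each subunit in separate isoforms for slow-twitch, fast-twitch and cardiac muscle, with slow skeletal muscle and heart sharing a troponin C, so the isoforms of a muscle follow its fibre types. The gastrocnemius of the mouse is a mainly fast calf muscle.

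The troponin isoforms were described in RNA from the gastrocnemius of 7 mice labelled UCP1-TG and 6 wild-type (WT) littermates. They were taken as the array probes with the gene names Tnnt1, Tnni1 and Tnnc1 (slow), Tnnt3, Tnni2 and Tnnc2 (fast), and Tnnt2 and Tnni3 (cardiac), control spots left out. This gave 8 genes and 10 probes of 34797 gene names and 55681 probes on the array, with 2 probes each for Tnnt1 and Tnnt3. The UCP1-TG mice carry a transgene for UCP1, the uncoupling protein of brown fat mitochondria, and per the series title overexpress it in skeletal muscle. The promoter of the transgene is not given in the sources used here. All mice, of either group, were males of the strain C57BL/6J. They were aged 12 weeks at the start per the labels and ate a purified low fat diet for 12 weeks. The labels call the samples individual, and each mouse was hybridised on 1 array of a 2-colour Agilent 8x60K design, its own RNA in the Cy5 channel against a pool of samples in the Cy3 channel. A level below is the log2 ratio of mouse to pool, so 0 is the level of the pool, and levels of different probes cannot be set against each other. A difference is the UCP1-TG mean minus the WT mean on the log2 scale, and p-values measure the spread between these 13 arrays.

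Between 20728 and 24036 probes per UCP1-TG array and between 20643 and 23022 per WT array were well above background. No spot was saturated. Ucp1 itself lay between -0.20 and 0.85 on the UCP1-TG arrays and between -4.23 and -2.82 on 5 of the 6 WT arrays, but the array labelled WT replicate 4 read 0.45 and so went against its label. The arrays lay on 4 slides, each holding both groups. The defining genes of skeletal muscle fibres, Acta1, Ckm, Myh1, Myh4 and Pvalb, were all well above background, with a summed Cy5 signal of 401800 to 806500 in UCP1-TG and 442100 to 841700 in WT. Their mean log2 ratio was -0.246 to 0.0981 in UCP1-TG and 0.246 to 0.711 in WT, and 3 of the 5 were called lower, Acta1, Pvalb and Myh4 (-0.74, and -0.115 without a call with the Cy5 channel alone). Myh1 was called higher, at 0.62. Of all genes tested, 16.8% were called higher and 16.1% lower.

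The probes are shown because the isoforms are alike in sequence and each value rests on 1 or 2 stretches of 60 bases. They are given in the direction of the transcript with coordinates in mm9, per the array design. The Tnni1 probe (chr1:137705328-137706203, plus strand), the Tnnc1 probe (chr14:32023360-32023776, plus) and the Tnnt2 probe (chr1:137747976-137748288, plus) each span more genome than their own length and thus cross a splice junction. The 2 Tnnt3 probes lie at chr7:149698467-149698526 and chr7:149698500-149700262 (plus), and the capitals mark the 27 bases that they share. The Tnni3 probe lies at chr7:4472043-4472102 (minus).
Tnni1 A_52_P657360: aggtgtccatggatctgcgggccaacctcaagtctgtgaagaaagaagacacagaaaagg
Tnnc1 A_51_P461894: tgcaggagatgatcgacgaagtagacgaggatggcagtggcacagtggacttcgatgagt
Tnnt3 A_55_P2088375: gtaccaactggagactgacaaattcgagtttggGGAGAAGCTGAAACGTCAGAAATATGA
Tnnt3 A_51_P345699: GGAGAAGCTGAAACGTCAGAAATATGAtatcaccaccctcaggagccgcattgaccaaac
Tnnt2 A_51_P338262: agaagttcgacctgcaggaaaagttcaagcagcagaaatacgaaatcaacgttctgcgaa
Tnni3 A_51_P386983: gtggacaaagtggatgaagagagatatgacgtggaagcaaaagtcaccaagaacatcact

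The Tnnt1 probes lie at chr7:4456265-4456324 and chr7:4456172-4456231 (minus), the Tnni2 probe at chr7:149630251-149630310 (plus) and the Tnnc2 probe at chr2:164602661-164602720 (minus). The brighter Tnnt1 probe and those of Tnni2 and Tnnc2 hold the letters AATAAA, the usual polyadenylation signal. Between probes of different troponin genes the closest match was that of a Tnnt3 probe with the Tnnt2 probe, 29 of 43 aligned bases or 67.4%. For the slow and fast genes of a subunit, the probes of Tnnc1 and Tnnc2 shared 17 of 36 aligned bases. Those of Tnni1 and Tnni2 shared 18 of 45. Probes of unlike subunits matched as well, with 16 of 30 for Tnni1 and Tnnc1. Because 2 probes need not come from the same part of their genes, these values do not tell how specific a probe is. No probe was compared with the whole transcript of another isoform.

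The slow isoform of every subunit was higher in UCP1-TG muscle, and on the brightest probes the fast isoform of every subunit was lower after loess normalization. Tnni1, Tnnt1 and Tnnc1 stood at 2.13, 1.94 and 1.84 times their WT level. Tnnc2, Tnni2 and Tnnt3 were 1.73, 1.52 and 1.41 times lower. The cardiac Tnnt2 was not called and the cardiac Tnni3 had no array well above background. In whole muscle, fewer fibres of a type and less RNA of that isoform per fibre cannot be told apart. Of the 7 troponin genes that passed the filter on dim probes, 6 passed an adjusted p of 0.05 in limma, 3 in each direction. Of all 17257 genes tested, 33.0% passed (16.8% higher and 16.1% lower), so a call is common in this comparison. Among those genes Tnni1 ranked 114, Tnnt1 148 and Tnnc1 177 from the largest rise. Tnnc2 ranked 264, Tnni2 500 and Tnnt3 786 from the largest fall. The rise of the slow isoforms held under all 5 ways of scaling the arrays, whereas the fall of the fast isoforms did not, as given with each gene.

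**Figure D1:**
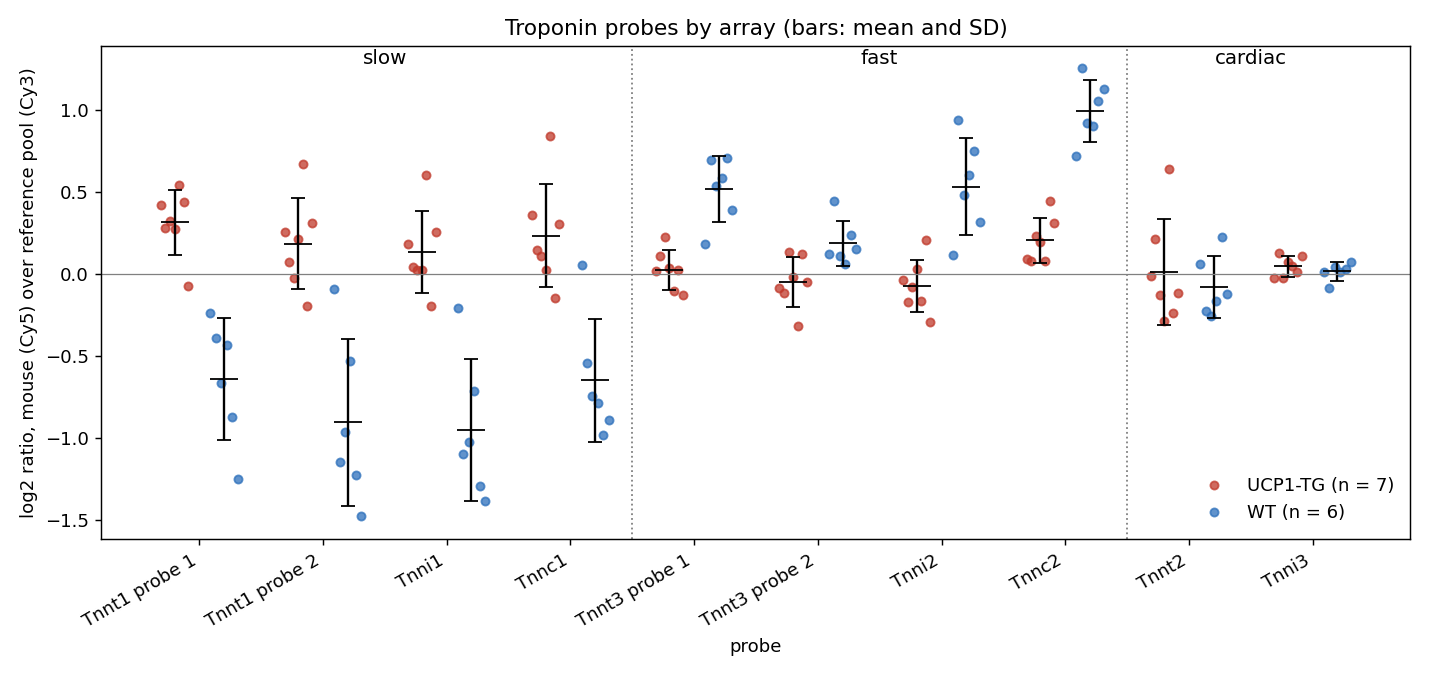
Log2 ratio of mouse (Cy5) to pool (Cy3) for the 10 troponin probes on each array, UCP1-TG (red, n = 7) left of WT (blue, n = 6), with mean and SD as bars. For Tnni1 the UCP1-TG arrays lie between -0.19 and 0.60, above the WT arrays at -1.38 to -0.20, while for Tnnc2 they lie between 0.079 and 0.45, below the WT arrays at 0.72 to 1.26.

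Tnnt1 encodes slow skeletal troponin T. On its brighter probe the UCP1-TG arrays ran from -0.073 to 0.55 with a median of 0.32, against -1.25 to -0.23 with a median of -0.55 on the WT arrays. The groups did not overlap, which held for 14.8% of all genes tested (7.48% higher and 7.28% lower in UCP1-TG). The lowest UCP1-TG array was replicate 7 and the highest WT array was replicate 1. The means were 0.32 ± 0.20 in UCP1-TG and -0.64 ± 0.37 in WT (SD, n = 7 and 6), a difference of 0.96 ± 0.13 (SE) with an adjusted p of 1.52e-05 in limma. The Cy5 signal over background was 14000 to 31800 in UCP1-TG and 4439 to 13320 in WT. The dimmer probe, 252.4 to 2706 in the same unit over all arrays, moved the same way: fitted among all probes, of which 31.8% were called (16.0% higher and 15.8% lower), it differed by 1.09 ± 0.18 (adjusted p = 7.4e-05 in limma). There the WT array of replicate 1 read -0.089 and overlapped the UCP1-TG range of -0.19 to 0.67. In the direction of the transcript, the dimmer probe lies past the brighter one, which holds the AATAAA. Whether both probes read the same Tnnt1 transcripts was not tested.

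Tnni1 encodes slow skeletal troponin I. The UCP1-TG arrays ran from -0.19 to 0.60 with a median of 0.047, against -1.38 to -0.20 with a median of -1.06 in WT. The groups did not overlap, although the gap was small: UCP1-TG replicate 6 at -0.19 lay next to WT replicate 1 at -0.20, and the other 5 WT arrays lay at or below -0.71. The means were 0.14 ± 0.25 in UCP1-TG and -0.95 ± 0.43 in WT, a difference of 1.09 ± 0.15 (95% interval 0.76 to 1.41) with an adjusted p of 1.97e-05 in limma. On their brightest probes no other troponin gene differed by more.

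Tnnc1 encodes the troponin C that slow skeletal muscle shares with the heart. The UCP1-TG arrays ran from -0.14 to 0.84 with a median of 0.15, against -0.98 to 0.060 with a median of -0.76 in WT. WT replicate 1, at 0.060, lay within the UCP1-TG range, and the other WT arrays lay below it at -0.54 or less. UCP1-TG replicate 5 was the highest array for Tnnc1, as it was for Tnni1 and Tnnt1. The means were 0.24 ± 0.32 in UCP1-TG and -0.65 ± 0.38 in WT, a difference of 0.88 ± 0.15 with an adjusted p of 0.000181 in limma.

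Tnnt3 encodes fast skeletal troponin T. On its brighter probe the UCP1-TG arrays ran from -0.13 to 0.23 with a median of 0.028, against 0.19 to 0.71 with a median of 0.57 in WT. WT replicate 1, at 0.19, overlapped UCP1-TG replicate 3, at 0.23, and all other WT arrays lay above both. The difference was -0.49 ± 0.085 (adjusted p = 0.000165 in limma), from means of 0.028 ± 0.12 in UCP1-TG and 0.52 ± 0.20 in WT. The other Tnnt3 probe, which shares 27 bases with it, differed by -0.23 ± 0.080 (adjusted p = 0.0306 in limma, over all probes), and its groups overlapped. The direction of this other probe depended on the scaling, as a set of fits added after seeing the data showed: it was 0.022 with median centring (adjusted p = 0.915 in limma), 0.12 with the scanner's log ratio (0.113), 0.098 with the Cy5 channel alone (0.277) and -0.038 in the authors' table (0.774). The other Tnnt1 probe stayed between 1.09 and 1.18 in the same fits.

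Tnni2 encodes fast skeletal troponin I. The UCP1-TG arrays ran from -0.29 to 0.21 with a median of -0.079, against 0.12 to 0.94 with a median of 0.54 in WT. The overlap came from UCP1-TG replicate 6 at 0.21 and WT replicate 1 at 0.12. The means of -0.071 ± 0.16 in UCP1-TG and 0.54 ± 0.30 in WT differed by -0.61 ± 0.11 (adjusted p = 0.00027 in limma).

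Tnnc2 encodes fast skeletal troponin C, which has more calcium-binding sites in use than the slow form. The UCP1-TG arrays ran from 0.079 to 0.45 with a median of 0.20, against 0.72 to 1.26 with a median of 0.99 in WT. Every UCP1-TG array lay below every WT array. The means of 0.21 ± 0.14 in UCP1-TG and 1.00 ± 0.19 in WT differed by -0.79 ± 0.086 (95% interval -0.97 to -0.61), with an adjusted p of 7.06e-07 in limma.

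The fast isoforms gave some of the brightest spots on the array, and their fall depended on the scaling. Among 55681 probes ranked by Cy5 signal in each array, Tnnc2 ranked between 1 and 5, Tnni2 between 4 and 11, and the Tnnt3 probes between 5 and 14 and between 25 and 45, whereas Tnni1 ranked between 2660 and 6461. The unscaled Cy5 signal over background of Tnnc2 was 139500 to 306100 in UCP1-TG and 185500 to 349200 in WT. When arrays were centred on their median without loess, the intensity-dependent correction, the differences were -0.22 for Tnnt3 (adjusted p = 0.275 in limma), -0.34 for Tnni2 (0.136) and -0.52 for Tnnc2 (0.00608). With the scanner software's log ratio they were -0.21 (0.0118), -0.23 (0.0948) and -0.31 (0.00324), in the same order of genes. With the Cy5 channel alone and quantile normalization, which gives the top ranks of every array like values, Tnnt3 was at 0.011 (0.919), Tnni2 at -0.056 (0.63) and Tnnc2 at -0.12 (0.216). In the authors' deposited table, fitted in the same way, they were -0.29 (0.038), -0.40 (0.0197) and -0.58 (0.000108). The slow isoforms differed by 0.88 to 1.16 (Tnnt1), 1.07 to 1.20 (Tnni1) and 0.88 to 1.00 (Tnnc1) over the same 5 scalings and were called under each.

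**Figure D2:**
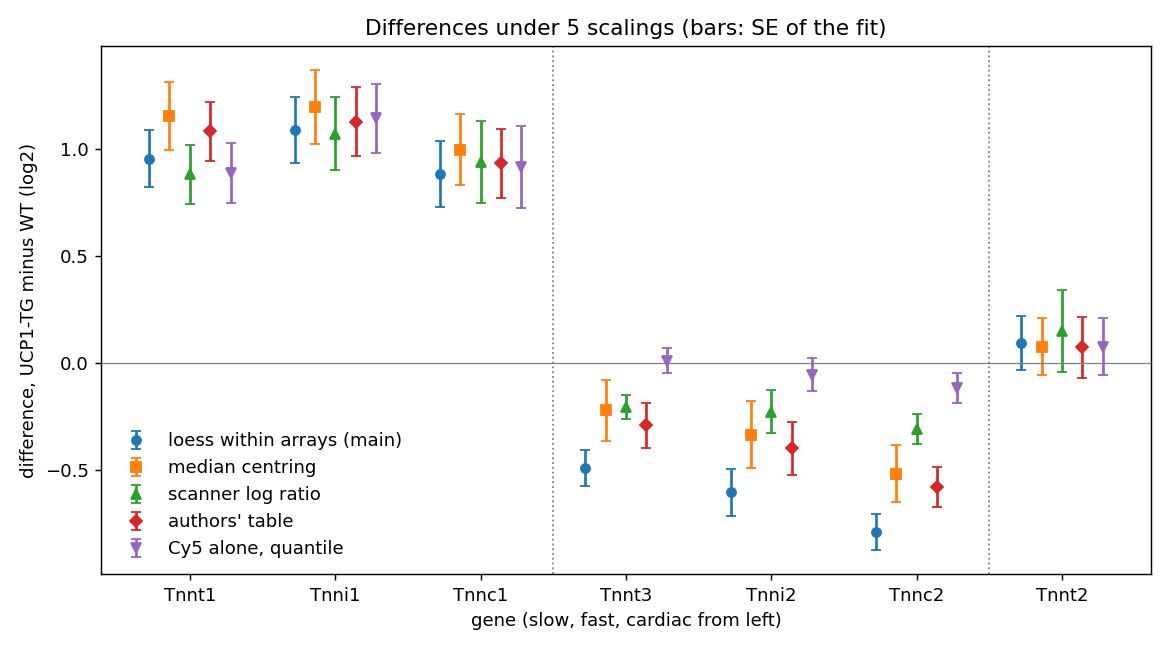
Difference of UCP1-TG minus WT (log2) for 7 troponin genes under 5 scalings of the arrays, with the SE of the limma fit as bars. The slow genes stay at 0.88 or more under every scaling, while the fast genes range from -0.79 to 0.011 and Tnnt2 stays near 0.

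Of the cardiac isoforms, Tnnt2 encodes cardiac troponin T, which developing skeletal muscle also expresses. It was well above background on all 13 arrays, at a low Cy5 signal of 73.31 to 266.9 over background in UCP1-TG and 67.45 to 129 in WT. The log2 ratio ran from -0.29 to 0.65 with a median of -0.11 in UCP1-TG, against -0.26 to 0.23 with a median of -0.14 in WT. The groups overlapped, and UCP1-TG replicate 5, at 0.65, stood above all other arrays. The difference of 0.093 ± 0.13 did not pass (adjusted p = 0.614 in limma), with a 95% interval from -0.17 to 0.35, and without UCP1-TG replicate 5 it was -0.013. Tnni3 encodes cardiac troponin I. None of the 7 UCP1-TG and 6 WT arrays had it well above background, and it was not tested. Its net Cy5 signal was 4.37 to 13.1 in UCP1-TG and 2.73 to 9.93 in WT. Of 10 heart muscle markers, only Myh6, a myosin heavy chain of the heart, passed the filter, and it was higher, by 0.51 ± 0.11 (adjusted p = 0.00103 in limma), while Gata4, Hcn4, Myl7, Nkx2-5, Ryr2, Tbx20 and Tbx5 had no array well above background.

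The balance of slow against fast isoform was then taken within each array, as the log2 ratio of the slow gene minus that of the fast gene of the same subunit. For troponin T (Tnnt1 minus Tnnt3) it ran from 0.054 to 0.65 in UCP1-TG and from -1.64 to -0.42 in WT, without overlap. The means of 0.29 ± 0.21 in UCP1-TG and -1.16 ± 0.44 in WT differed by 1.45, a 2.73-fold shift (exact permutation p = 0.000583, two-sided, the smallest that 1716 splits of the arrays allow). For troponin I (Tnni1 minus Tnni2) it ran from -0.40 to 0.76 in UCP1-TG and from -2.04 to -0.32 in WT. Here UCP1-TG replicate 6 lay below WT replicate 1, and the means of 0.21 ± 0.38 in UCP1-TG and -1.49 ± 0.64 in WT differed by 1.70, or 3.24-fold (exact permutation p = 0.00117). For troponin C (Tnnc1 minus Tnnc2) it ran from -0.59 to 0.76 in UCP1-TG and from -2.04 to -0.66 in WT, where replicate 1 was again the highest array. The means of 0.030 ± 0.42 in UCP1-TG and -1.65 ± 0.51 in WT differed by 1.67, or 3.19-fold (exact permutation p = 0.000583). Adjusted over the 3 balances by Benjamini-Hochberg, the p-values were 0.000874, 0.00117 and 0.000874 for T, I and C.

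**Figure D3:**
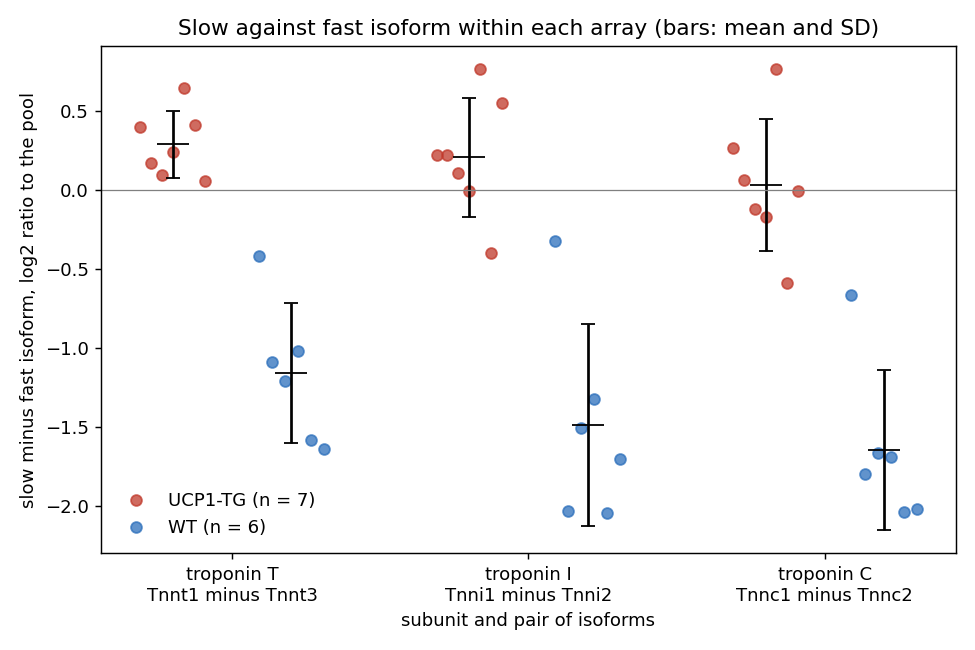
Slow minus fast isoform (log2 ratio to the pool) within each array for troponin T, I and C, UCP1-TG (red, n = 7) left of WT (blue, n = 6), with mean and SD as bars. UCP1-TG arrays lie at -0.59 or above for all 3 subunits, and the WT array nearest to them is replicate 1 each time.

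The balances combine a slow change that held under each scaling with a fast change that did not. With the Cy5 channel alone they were 0.88, 1.20 and 1.04 for T, I and C, with exact permutation p-values of 0.000583, 0.00117 and 0.0035. With the authors' table they were 1.38, 1.53 and 1.51.

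WT replicate 1 stood apart from the other WT arrays in the troponins, with the highest level of Tnnt1, Tnni1 and Tnnc1 and the lowest level of Tnni2, Tnnt3 (brighter probe) and Tnnc2. Without it the differences were 1.04 for Tnnt1, 1.24 for Tnni1, 1.02 for Tnnc1, -0.56 for Tnnt3, -0.69 for Tnni2 and -0.85 for Tnnc2, and the balances were 1.60, 1.93 and 1.87 for T, I and C. Without the array labelled WT replicate 4, whose Ucp1 went against its label, the 6 differences were 1.00, 1.14, 0.86, -0.48, -0.59 and -0.81 in the same order. All 6 genes were called in each of these fits. The troponin levels of the array labelled WT replicate 4 lay within those of the other WT arrays for these 6 genes, for example -0.71 for Tnni1 and 0.90 for Tnnc2.

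Slide 1 held UCP1-TG replicates 1 and 2 with WT replicate 1 and gave smaller differences than each other slide for all 6 of these genes. Tnnt1 differed by 0.59 there and by 0.84 to 1.24 on the other slides. Tnni1 differed by 0.32 there and by 1.03 to 1.37 on the others, and Tnnc1 by 0.19 there and by 0.75 to 1.22 on the others. Tnnt3 was at -0.12 there and at -0.62 to -0.39 on the others, and Tnni2 at -0.22 there and at -0.79 to -0.57 on the others. Tnnc2 was at -0.63 there and at -0.86 to -0.71 on the others. Each slide held 1 or 2 arrays per group, so no test was made within slides. The direction of all 6 differences was the same on every slide, where the only WT array of slide 3 was the one labelled WT replicate 4. With slide as a fixed block in limma all 6 were called, at 0.92, 1.00 and 0.82 for Tnnt1, Tnni1 and Tnnc1 and at -0.45, -0.57 and -0.74 for Tnnt3, Tnni2 and Tnnc2.

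Within the groups, Tnni1 and Tnnc1 varied together. Their deviations from the group means correlated over the 13 arrays with Pearson's r of 0.89 (permutation p = 0.00068, adjusted p = 0.0143 over 21 pairs of the 7 measured troponins) and Spearman's rho of 0.76 (permutation p = 0.00547, adjusted p = 0.0574). The coefficient was 0.985 within UCP1-TG and 0.861 within WT, and it was 0.63 without the 2 arrays farthest from the median. No other pair passed after adjustment. The next were Tnnt3 with Tnni2, at 0.77, and Tnni1 with Tnnc2, at -0.74 (adjusted p = 0.0683 for each by permutation), and the second of these was 0.077 without loess. The order of the pairs depended on the scaling. With the scanner's log ratio Tnnt1 and Tnni1 reached 0.897, Tnni1 and Tnnc1 0.883, Tnnt3 and Tnnc2 0.882 and Tnnt1 and Tnnc1 0.854. Without loess Tnni1 and Tnnc1 reached 0.913, Tnnt3 and Tnni2 0.904 and Tnni2 and Tnnc2 0.859. With 3 or 4 arrays a slide, no correlation was computed within slides.

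**Figure D4:**
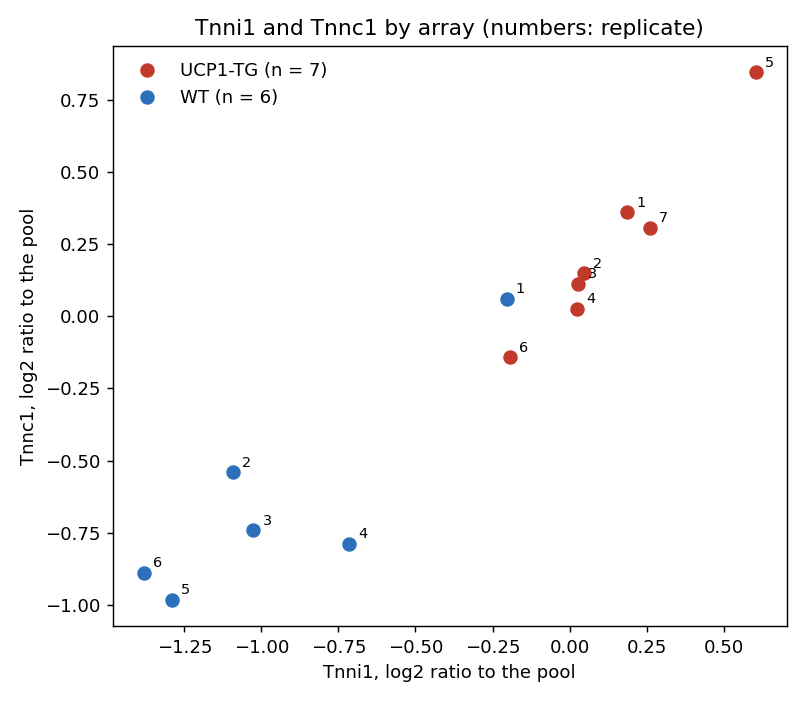
Tnni1 (x axis) against Tnnc1 (y axis), both as log2 ratio to the pool, with 1 point per array, UCP1-TG in red (n = 7) and WT in blue (n = 6), labelled with the replicate number. UCP1-TG replicate 5 is highest in both, and WT replicate 1 lies next to UCP1-TG replicate 6, just below the UCP1-TG points in Tnni1 and within their range in Tnnc1, while the other WT points lie at -0.71 or below for Tnni1.

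The genes most like each troponin were those with the highest Pearson r between deviations from the group means over the 13 arrays, among 17127 genes with a value on every array. These are given as a description. They were Atp2a2 (0.97), Myh7 (0.96) and Myoz2 (0.94) for Tnni1. Atp2a2 is the calcium pump, Myh7 the myosin heavy chain and Myoz2 a Z-disc protein of slow fibres and heart. For Tnnc1 they were Myh7 (0.95), Atp2a2 (0.91) and a probe with no gene name, A_55_P2093231 (0.90). For Tnnt1 they were Galnt1 (0.94), Tpm3, the slow tropomyosin (0.94), and Nup188 (0.92). For the fast genes they were Gm5786, Kbtbd2 and Limd2 for Tnnt3 (0.90 to 0.92), Baiap2l2, Rps3 and Mrpl23 for Tnni2 (0.93 to 0.95), and Diexf, Myh8 and Jsrp1 for Tnnc2 (0.91 to 0.96). Of these, Myh8 is the perinatal myosin heavy chain and Jsrp1 a protein of the junction that couples excitation to contraction.

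Genes that act beside troponin were read from lists. Of 11 measured slow-fibre contractile genes, 9 were higher and none lower, with a median difference of 0.77 against -0.0011 for all genes tested. Of all genes tested, 16.8% were higher and 16.1% lower. Myh7 differed by 1.17 ± 0.16 (adjusted p = 1.29e-05 in limma), Tpm3 by 1.04 ± 0.18, Myh7b, another slow myosin heavy chain, by 0.96 ± 0.12 and Actn2, an actinin of the Z-disc, by 0.80 ± 0.096. The probes of Tpm3 disagreed, with differences from -0.16 to 1.04, and the 2 probes of Actn2 were at 0.17 and 0.80. The 2 that did not pass were Mybpc1 at -0.21 and Myl6b at 0.16, named after their values were seen. Under each of the 5 scalings the counts were again 9 higher and none lower, with 22.9% to 38.2% of all genes called.

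Of 13 measured fast-fibre contractile genes, 9 were lower and 1 was higher, with a median of -0.70. Of all genes tested, 16.1% were lower and 16.8% higher. Mylk2, the kinase of the myosin light chain, differed by -1.10 ± 0.11 (adjusted p = 1.45e-07 in limma), Myl1, a fast myosin light chain, by -1.01 ± 0.082, Pvalb, the calcium buffer parvalbumin, by -0.91 ± 0.12 and Casq1, the calcium store protein of fast fibres, by -0.90 ± 0.097. The exception was Myh1, the IIx myosin heavy chain, at 0.62 ± 0.10, named after its value was seen. The median was -0.44 with median centring, -0.47 with the scanner's log ratio and -0.12 with the Cy5 channel alone. With the Cy5 channel alone 6 were lower and 1 higher, where 30.2% of all genes were called. There Myl1 was at -0.33 and Pvalb at -0.26, while Mylk2 was at -1.17 and Casq1 at -0.93. Fast troponins at -0.79 to -0.49 thus lay within the range of this list, as slow troponins at 0.88 to 1.09 lay within that of the slow list.

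The partners of troponin on the thin filament, actin, tropomyosins, nebulin and the capping proteins, were mixed. Of 13 measured, 3 were higher and 7 lower, with a median of -0.29, where 16.8% of all genes tested were higher and 16.1% lower. Median centring gave 4 higher and 3 lower, with 22.9% of all genes called. Tpm3 was the highest of these, and skeletal actin Acta1 differed by -0.93 ± 0.11 (-0.37 with the Cy5 channel alone). The actin-severing Cfl2 differed by 0.74 ± 0.060 (0.13 on its other probe) and the capping protein Capza2 by -0.74 ± 0.11. Of 9 measured genes of developing or denervated muscle, 4 were higher and 2 lower: Myog, a myogenic transcription factor, at 1.39 ± 0.094, Chrna1, an acetylcholine receptor subunit, at 1.03 ± 0.12, Myl4, an embryonic and atrial light chain, at 0.88 ± 0.18, and Myh8 at -0.74 ± 0.091 were the largest. Their median was 0.099. With the Cy5 channel alone, where Myh8 was at -0.029 and 30.2% of all genes were called, 4 were higher and none lower.

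**Figure D5:**
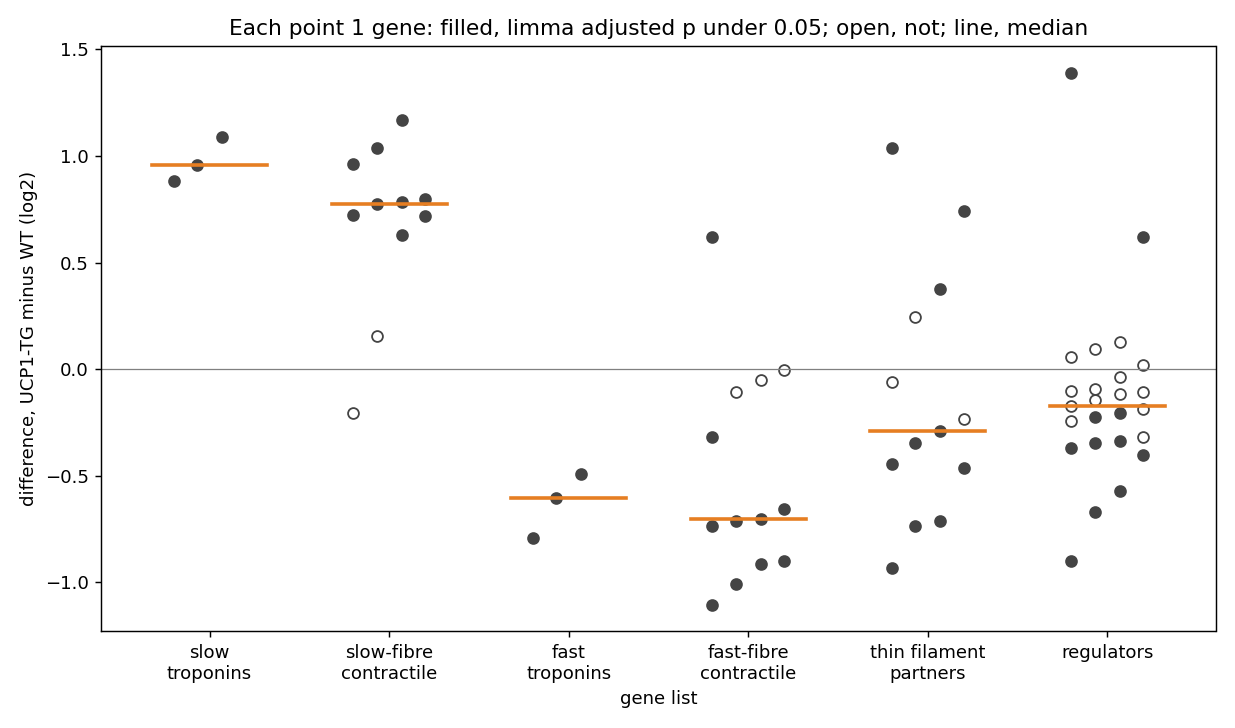
Difference of UCP1-TG minus WT (log2), 1 point per gene, for the slow and fast troponins and for 4 lists, filled where limma's adjusted p was under 0.05, with the median as a line. The medians are 0.96 for slow troponins and 0.77 for slow-fibre contractile genes, against -0.61 for fast troponins and -0.70 for fast-fibre contractile genes.

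Among 25 measured transcription factors and signalling genes that are known to act on troponin or fibre-type genes, 2 were higher and 9 lower, with a median of -0.17, where 16.8% of all genes tested were higher and 16.1% lower. Myog was at 1.39 ± 0.094 (adjusted p = 8.29e-10 in limma) and Vgll2, a cofactor of TEAD factors, at 0.62 ± 0.11. Hdac4, a histone deacetylase that binds MEF2, was at -0.67 ± 0.077. Sox6, a repressor of slow-fibre genes in mouse muscle, was at -0.57 ± 0.088 (adjusted p = 5.01e-05) and is named after its value was seen. Median centring gave 2 higher and 5 lower of 25, with 22.9% of all genes called, so the count of this list then lay near that of all genes.

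The stretches before the gene starts are shown for the troponins that moved and had an entry in the promoter table of RefSeq (GRCm38.p6): Tnnt1 (chr7:4515976-4516225, minus strand), Tnni1 (the upstream one of its 2 windows, chr1:135799171-135799420, plus), Tnnc1 (chr14:31208062-31208311, plus) and Tnnc2 (chr2:164779735-164779984, minus). Tnnt3 and Tnni2 are named only. Each holds the 250 bases before the start, 5′ to 3′. Capitals mark matches, on either strand, to the E-box CANNTG bound by myogenic factors, the MCAT element CATTCC bound by TEAD factors, the TATA box TATAAA and the MEF2 consensus.
Tnnt1: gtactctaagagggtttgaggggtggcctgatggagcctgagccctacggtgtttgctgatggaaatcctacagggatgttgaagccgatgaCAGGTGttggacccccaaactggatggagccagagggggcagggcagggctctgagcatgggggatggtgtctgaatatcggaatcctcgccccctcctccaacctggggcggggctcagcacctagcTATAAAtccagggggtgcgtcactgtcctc
Tnni1: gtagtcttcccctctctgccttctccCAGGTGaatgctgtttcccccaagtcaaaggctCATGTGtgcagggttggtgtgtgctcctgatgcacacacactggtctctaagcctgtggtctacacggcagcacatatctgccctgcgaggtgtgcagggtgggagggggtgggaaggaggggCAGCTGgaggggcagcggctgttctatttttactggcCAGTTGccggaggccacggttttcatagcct
Tnnc1: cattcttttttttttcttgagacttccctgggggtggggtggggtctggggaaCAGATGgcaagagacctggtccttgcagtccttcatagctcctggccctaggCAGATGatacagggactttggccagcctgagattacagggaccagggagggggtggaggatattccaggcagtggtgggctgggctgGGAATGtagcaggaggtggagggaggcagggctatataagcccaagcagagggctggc
Tnnc2: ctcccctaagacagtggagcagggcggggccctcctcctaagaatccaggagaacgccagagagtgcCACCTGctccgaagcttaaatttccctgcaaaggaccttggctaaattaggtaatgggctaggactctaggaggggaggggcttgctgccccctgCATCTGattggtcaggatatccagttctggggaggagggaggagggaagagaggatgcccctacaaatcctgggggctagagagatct

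Tnnt1 held 1 E-box, Tnni1 held 4, Tnnc1 held 2 and Tnnc2 held 2. An E-box was found in 66.2% of 32851 promoter windows of the same length, so these matches are common letters. A TATAAA lay 30 bases before the start of Tnnt1, against 12.4% of all windows with one. An MCAT element, as GGAATG on the given strand, lay 58 bases before the start of Tnnc1, against 12.6% of windows. No window held the MEF2 consensus, found in 2.92% of windows. No motif overlapped another, and a match is a run of letters and not a shown binding site.

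On the genome 6 of the troponin genes lie in pairs of a troponin I and a troponin T gene. Tnni1 and Tnnt2 are neighbours on chromosome 1 with Lad1 between them, Tnni3 and Tnnt1 are direct neighbours on chromosome 7, and Tnni2 and Tnnt3 lie on chromosome 7 with Lsp1 between them. The called Tnni1 (1.09) and Tnnt1 (0.96) thus each lie beside a cardiac gene that was not called or not measured, while the fast pair Tnni2 (-0.61) and Tnnt3 (-0.49) were both lower. The probes of these pairs lie 41772, 15718 and 68156 bases apart in mm9.

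Markers of some other cell types moved with the groups as well, where 33.0% of all genes tested were called (16.8% higher and 16.1% lower). All 7 measured adipocyte markers were higher in UCP1-TG, with a median of 0.81. The largest were Cfd at 1.07, Retn at 0.94, Cidec at 0.91 (0.39 on its other probe) and Adipoq at 0.81. The summed Cy5 signal of the adipocyte markers was 25080 to 49070 in UCP1-TG and 12680 to 28910 in WT. Lep was well above background on no array, and 4 of the 7 markers passed without WT replicate 1. With the mean adipocyte marker as a covariate, which left 2344 genes called, Tnnt1 differed by 0.81 (adjusted p = 0.0337 in limma), Tnni1 by 0.84 (0.0562), Tnnc1 by 0.88 (0.0496), Tnnt3 by -0.61 (0.0128), Tnni2 by -0.57 (0.0747) and Tnnc2 by -0.55 (0.0155). Of 3 measured blood markers 3 were higher (0.61 to 0.68), with a summed signal of 11490 to 32540 in UCP1-TG and 5677 to 18990 in WT. Of 5 Schwann cell markers 3 were higher (0.26 to 0.46), with a summed signal of 542.8 to 1250 in UCP1-TG and 324.4 to 806.8 in WT. The parts of blood and Schwann cell RNA in the troponin differences were not tested. Of 6 fibroblast markers 1 was higher (Col1a1), of 6 endothelial markers 1 was lower (Kdr, whose 2 probes were at -0.27 and 0.29 and whose call was lost with median centring, the scanner's log ratio and the Cy5 channel alone), and of 3 measured macrophage markers 1 was lower (Csf1r, lost with median centring and the Cy5 channel alone). The smooth muscle and satellite cell markers, at -0.095 to 0.094, were not called.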

How the data were processed

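RNA of 13 mice, 7 UCP1-TG and 6 WT, was read on 2-colour arrays. Per the file headers, the deposited scanner files of Agilent Feature Extraction 10.5.1.1, also named in the submitters' processing notes, hold linear intensities of spot and background, other flags and a log10 ratio. The authors' deposited value table was taken as log2 intensities (each column's median 7.58), since it followed the Cy5 signal (r 0.992 to 0.998); its normalization is not given in the sources used here. Labelling started from 200 ng of RNA per the labels.

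Intensities were corrected with normexp (offset 50) and loess within arrays (limma 3.58.1, R 4.3.3), without controls and outlier spots. Probes were kept where at least 6 arrays had a Cy5 signal well above background (22716 of 55681), and the brightest stood for its gene. Groups were compared with limma, two-sided, with Benjamini-Hochberg adjustment over 17257 genes. On data simulated with independent noise and far fewer changed genes than were called here, 93 of 100 changes of 0.5 were called. So were 100 of 100 changes of 1 and 7 of 17057 unchanged genes. These rates need not hold for this comparison. The number of arrays limits the precision. The members and lists were chosen with earlier results of these data known. Beside the members and Ucp1, the text names up to 4 called genes of each list with the largest difference and the 3 genes most like each called troponin, except where an item is not reported here. No dyes were swapped. Alternatives were other scalings, filters, probe summaries, blocks, an adipocyte covariate, the authors' table and each array left out.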

Additional observations from a re-analysis of the deposited data

Results flagged for a closer look

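Of 28 groups of values tested for a stray array, 3 held one, and chance flags about 1 in 20 such groups. The balance Tnnc1 minus Tnnc2 of WT replicate 1 was -0.66, far above the next WT array at -1.66. Ucp1 of the array labelled WT replicate 4 was 0.45, against -2.82 on the next WT array. Tnni3 of WT replicate 2 was -0.085, below the next WT array at 0.017, on a probe that no array had well above background.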

How the results depend on the processing

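The rise of Tnnt1 and Tnnc1 was called under every alternative that gave a test, and that of Tnni1 under all but the adipocyte covariate (0.84). The fall of the fast genes rested on the scaling: lower calls numbered 1 with median centring (Tnnt3 -0.22, Tnni2 -0.34) and 0 with the Cy5 channel alone (Tnnt3 0.011, Tnni2 -0.056, Tnnc2 -0.12), and Tnni2 was -0.23 with the scanner's log ratio and -0.57 with the adipocyte covariate, which left 2344 genes called. The dimmer Tnnt3 probe reversed to 0.022 with median centring, 0.12 with the scanner's log ratio and 0.098 with the Cy5 channel alone, fits added after seeing the data. Quantile normalization gives the brightest ranks like values by construction, and the cause of the other changes was not tested. Among all called genes 51.1% were higher, against 61.8% with median centring. Within slide 1 the values were 0.59, 0.32, 0.19, -0.12 and -0.22 for Tnnt1, Tnni1, Tnnc1, Tnnt3 and Tnni2, and 0.71, 0.54 and 0.83 for the balances of T, I and C. Within slide 4 Tnnt2 was -0.23 and the balance of T 1.84. With each array left out in turn, the called genes numbered 5139 to 5704 and the troponins 3 higher and 3 lower. Tnnt1 then ranged from 0.83 to 1.04, Tnni1 from 1.00 to 1.24, Tnnc1 from 0.78 to 1.02, Tnnt3 from -0.56 to -0.45, Tnni2 from -0.69 to -0.53, Tnnc2 from -0.85 to -0.74, and Tnnt2 from -0.013, without UCP1-TG replicate 5, to 0.15. The balances ranged from 1.35 to 1.60, 1.58 to 1.93 and 1.55 to 1.87 for T, I and C. The labels number the replicates of both groups, but the values gave no sign that the numbers mark pairs. Same-numbered arrays correlated at -0.23 to 0.23, above 0.1 in 3 of 6 pairs, and 1 of 6 correlated best with its own number. So few values cannot show that no pairing exists. With the replicate block 5365 genes were called, and all 6 troponins among them. Signal over background limits Tnni3, which could not be compared, and Tnnt2, which was dim.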
